A study of Mus musculus with 6 samples.

Results

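The unfolded protein response and endoplasmic reticulum (ER) secretion genes are a set of 36 genes, listed by symbol and found among the 52636 genes of the deposited table. All 36 symbols matched 1 mouse Ensembl gene each, and all 36 passed the filter on low counts. The genes were followed in 6 RNA sequencing libraries of innate lymphoid cells (ILCs), lymphocytes that lack rearranged antigen receptors. The cells came from the lungs of wild-type C57BL/6 mice that carried the IL-4-4get GFP reporter, an allele that makes green fluorescent protein from the Il4 locus. Every mouse had received 500 ng of recombinant interleukin-33 (IL-33) intraperitoneally for 4 days and was killed on day 5, so no untreated cells were compared. Lineage-negative, CD90-positive cells were sorted to a purity stated as over 90% into KLRG1-negative ILCs (3 libraries) and KLRG1-positive ILC2 (3 libraries), the latter also called KLRG1-high in the protocol; they are called negative and positive libraries below. KLRG1 is a lectin-like receptor carried by activated group 2 ILCs (ILC2). The ages of the mice, and whether the libraries of a group came from separate or pooled animals, are not given in the sources used here, and the p-values therefore cover just the spread among these 6 libraries, part of which may be technical.

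Proteins that a cell secretes or places on its surface enter the ER through the Sec61 translocon, lose their signal peptide, are folded by chaperones and disulfide isomerases, and leave in COPII vesicles. When unfolded protein accumulates, 3 sensors in the ER membrane respond: IRE1 (Ern1) splices the Xbp1 mRNA, PERK (Eif2ak3) slows translation and favours ATF4, and ATF6 is cut to release a transcription factor. Together they raise chaperones, ER-associated degradation and secretory capacity, and under lasting stress the factor CHOP (Ddit3). Lymphocytes that secrete large amounts of protein, plasma cells above all, run this programme at a high level, and activated ILC2 secrete cytokines. Gene counts do not distinguish spliced from unspliced Xbp1 mRNA, nor cut from uncut ATF6 protein.

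The factors ATF6 and NF-Y act on the ER stress response element (ERSE), defined here as CCAAT, 9 bases of any kind, then CCACG. RefSeq promoter windows on build GRCm38.p6, from 250 bases before to 50 bases after the annotated start, were matched to 31 of the 36 genes by symbol. The genes without a window were Atf6, Hyou1, Manf, Sec11c and Sec61a1. An ERSE on either strand was found in 8 of the 31 genes, and in 39 of all 32851 windows of the same length (0.119%). Because the genes were listed as members of this pathway, the share is a description of the list. The 9 ERSE matches are shown because they are the element that most promoters of the set with any match have in common. Each is read 5′ to 3′ on the strand that has CCAAT first, with 5 flanking bases on each side, and the capitals mark the 2 boxes.
Hspa5, chr2:34772020-34772048, plus strand: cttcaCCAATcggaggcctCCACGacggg
Hsp90b1 far site, chr10:86705633-86705661, minus strand: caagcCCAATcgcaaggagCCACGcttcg
Hsp90b1 near site, chr10:86705528-86705556, plus strand: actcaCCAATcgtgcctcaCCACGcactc
Calr, chr8:84847070-84847098, plus strand: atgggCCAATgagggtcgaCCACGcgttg
Canx, chr11:50325795-50325823, minus strand: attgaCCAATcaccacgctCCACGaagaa
Creld2, chr15:88819515-88819543, minus strand: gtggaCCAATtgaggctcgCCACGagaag
Dnajc3, chr14:118937822-118937850, plus strand: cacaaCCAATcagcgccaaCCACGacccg
Pdia6, chr12:17266486-17266514, plus strand: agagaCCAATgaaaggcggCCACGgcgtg
Syvn1, chr19:6046527-6046555, plus strand: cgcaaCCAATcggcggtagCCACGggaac

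Other elements were searched on both strands, and no matches in these genes overlapped. The shorter ERSE-II (ATTGG, 1 base of any kind, then CCACG) was in Herpud1 and Dnajb11, and in 0.0365% of all windows. The XBP1 element UPRE (TGACGTGG) was in Sec24d, and in 0.676% of windows. The ATF4 element CARE (TGATGNAA) was in Herpud1 and Trib3, and in 3.97% of windows. The promoters of Syvn1, the gene of the set with the smallest p among those lower in KLRG1-positive cells, and of Herpud1, which holds 2 different elements, are given as the 150 bases up to the annotated start (plus strand of chr19:6046426-6046575 and of chr8:94386279-94386428), with the matched elements in capitals.
Syvn1: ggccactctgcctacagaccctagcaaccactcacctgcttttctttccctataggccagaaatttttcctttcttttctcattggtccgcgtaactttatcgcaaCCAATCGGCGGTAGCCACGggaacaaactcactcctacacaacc
Herpud1: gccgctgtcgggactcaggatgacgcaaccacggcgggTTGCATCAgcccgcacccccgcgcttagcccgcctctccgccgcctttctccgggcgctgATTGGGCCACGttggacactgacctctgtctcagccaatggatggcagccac

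Library totals ranged from 17323004 to 23946073 counts, and levels are given as CPM, the counts after scaling every library to the same total with TMM factors. Klrg1 itself was at 13.1 to 193 CPM in negative and 1327 to 1786 CPM in positive libraries. The 13 ILC2 markers, which include Klrg1, summed to 1729 to 4406 CPM in negative against 8223 to 9961 CPM in positive libraries. Of the 13, 8 were higher in positive libraries without overlap, among them Klrg1, on which the cells were sorted. Markers of other cells were mostly higher in negative libraries, with exceptions. Epithelial, endothelial and myeloid sums overlapped between the groups (means 278 against 188, 283 against 180 and 221 against 196 CPM). The mast cell and basophil sum averaged 22.1 against 59.3 CPM, with 2 of its 4 tested genes higher and 2 lower in positive libraries. The 11 T cell markers summed to 2069 to 7972 against 554 to 759 CPM, 11 fibroblast markers to 4605 to 12620 against 19.8 to 54.0 CPM, and 11 plasma cell markers to 7518 to 29640 against 2674 to 8894 CPM. Cd3e was at 149 to 799 against 8.81 to 39.0 CPM, although the cells were sorted as lineage-negative. Cd8a was at 192.5 to 674 against 3.47 to 42.1 CPM and Cd8b1 at 255 to 1245 against 2.83 to 72.9 CPM, while Cd4 had no count in 4 libraries. The 9 B cell markers summed to 680 to 4763 against 135 to 387 CPM, and all 9 were lower in positive libraries without overlap. The fibroblast markers Lum and Pdgfra had no count in 2 positive libraries each. Of the plasma cell list, Mzb1 and Derl3 are also ER genes, and Prdm1 and Irf4 are expressed by ILC2 too. Most of its sum was immunoglobulin RNA, with Ighm averaging 13660 against 3989 CPM and Igkc 5531 against 851 CPM. Sdc1 averaged 41.7 against 10.5 CPM and Tnfrsf17 2.53 against 0.89 CPM. Whether the immunoglobulin RNA came from plasma cells or B cells was not tested. Plasma cells and fibroblasts are secretory cells that express ER genes strongly, and the part of these cells in the differences below was not tested. In sorted bulk libraries a smaller share of a cell type and less RNA per cell cannot be told apart.

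None of the 36 genes passed the test between KLRG1-positive and KLRG1-negative cells, in either direction (edgeR quasi-likelihood test, adjusted p under 0.05; smallest adjusted p = 0.086). Among all 15197 tested genes 0.125% were called higher and 1.21% lower. At an unadjusted p under 0.05, 4 of the 36 were higher (Spcs2, Sec11c, Sar1b and Pdia3) and 2 lower (Atf4 and Syvn1), against 4.19% and 11.5% of all tested genes. With the replicate number as a block these counts were 7 and 2, where 6.74% and 12.3% of all genes passed, again with 0 adjusted calls (0% of all genes higher and 0.349% lower). DESeq2 called 1 gene, Spcs2, higher and 0 lower, where it called 1.91% of all genes higher and 8.79% lower. At an unadjusted p under 0.05 it had 5 higher and 4 lower, with 3.57% and 10.1% of all genes. DESeq2 with the replicate block called 2, Spcs2 and Pdia3, higher and 0 lower, beside 3.61% and 11.2% of all genes. Log2 fold changes, positive where KLRG1-positive cells are higher, were above 0 for 22 of the 36 genes (46.5% of all tested genes). The median was 0.15 for the 36 genes, against -0.05 over all tested genes. This gap was gone without KLRG1-negative library 2 (0.037 and 0.057) or KLRG1-positive library 3 (0.027 and 0.025), and stayed in the other leave-out fits.

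The roles differed in where their members stood. The translocon and signal peptidase genes lay mostly above 0 (5 of 6, median 0.55), as did all 3 COPII genes (median 0.36). The 8 sensors and transcription factors had a median of -0.18, with 5 below 0, and the 11 chaperones a median of 0.01, with 6 above and 5 below 0. The medians are descriptions of short lists, and no test compared the roles with each other.

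**Figure D1:**
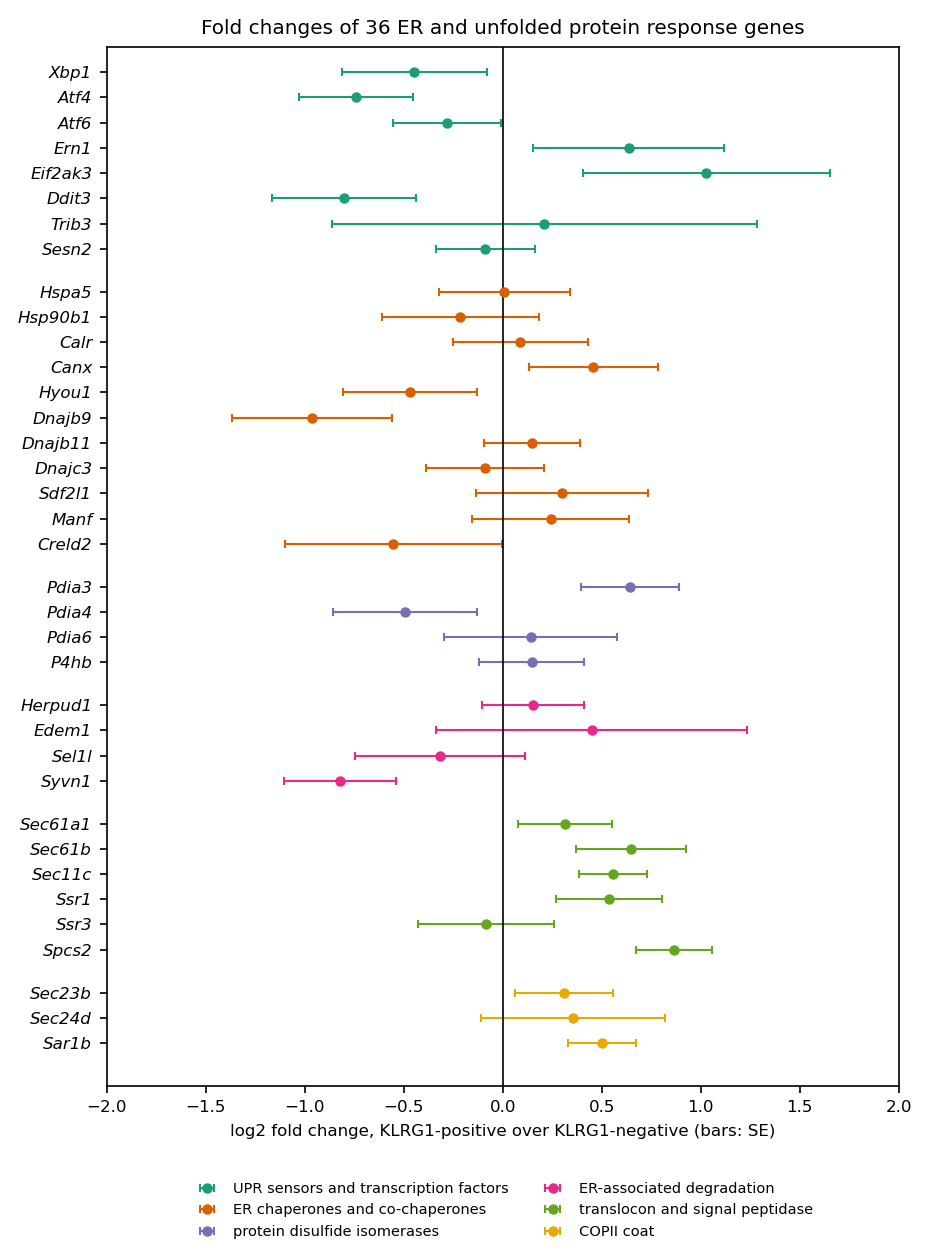
Log2 fold change of each of the 36 genes (x axis, KLRG1-positive over KLRG1-negative, bars show the SE), grouped by role along the y axis with 3 libraries per group. The estimates run from -0.96 for Dnajb9 to 1.03 for Eif2ak3, and those of the translocon and COPII genes lie right of 0 except Ssr3.

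Among the 8 sensors and factors, Xbp1 was the most abundant per length of gene model (101 CPM per kilobase over the 6 libraries) and Eif2ak3 the least. Ern1, at 6.4 CPM per kilobase, was near Atf6, at 8.27. Ern1, the IRE1 kinase and nuclease, was at 25.1, 44.1 and 53.7 CPM in negative libraries 1, 2 and 3, against 32.4, 100.1 and 58.6 CPM in positive libraries 1, 2 and 3. Library 2 of the KLRG1-positive cells was the highest, and the groups overlapped (log2 fold change 0.64 ± 0.48 SE, adjusted p = 0.633). Eif2ak3, the PERK kinase, was, again with negative libraries first, at 3.28, 8.91 and 3.46 against 5.46, 11.4 and 15.1 CPM, and per length it was the lowest of the set (1.32 CPM per kilobase). Its mean was 2.04-fold higher in KLRG1-positive cells, but KLRG1-negative library 2 lay above KLRG1-positive library 1 (1.03 ± 0.62, adjusted p = 0.523). Without KLRG1-negative library 2 its log2 fold change was 1.75 (adjusted p = 0.23). Both kinases were higher in the KLRG1-positive library of each same-numbered pair. Atf6, the third sensor, was at 77.2, 64.9 and 109 against 84.8, 58.6 and 63.4 CPM, with overlapping groups (-0.28 ± 0.27, adjusted p = 0.733).

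The transcription factors Xbp1, Atf4 and Ddit3 all had negative fold changes. Xbp1, the target of IRE1 and a factor required by plasma cells, was at 409.9, 237 and 488 CPM in negative against 184, 273 and 376 CPM in positive libraries. The ranges overlapped and the difference of -0.45 ± 0.37 did not pass (adjusted p = 0.664). Atf4, the factor whose translation PERK favours, was at 86.4, 138 and 180.1 against 85.2, 77.7 and 79.2 CPM. All 3 KLRG1-positive libraries lay below all KLRG1-negative ones, but KLRG1-negative library 1 was only just above them (-0.74 ± 0.29, adjusted p = 0.288). Ddit3, the CHOP factor, was at 24.0, 18.0 and 12.5 against 11.1, 10.4 and 9.72 CPM, also without overlap (-0.80 ± 0.36, adjusted p = 0.362). Trib3, a pseudokinase induced through ATF4 and CHOP, had the widest SE of the set, at 10.5, 2.21 and 8.03 against 4.39, 1.07 and 18.4 CPM (0.21 ± 1.07, adjusted p = 0.968), and its fold change was -1.21 without KLRG1-positive library 3. Sesn2, a stress-induced regulator of the mTORC1 pathway, overlapped between the groups, at 27.3, 29.6 and 30.1 against 22.7, 32.3 and 26.9 CPM (-0.09 ± 0.25, adjusted p = 0.929).

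Groups did not overlap for 4 of the 36 genes with KLRG1-positive cells above (Spcs2, Sec11c, Sec61b and Sar1b; 9.46% of all tested genes) and for 3 below (Atf4, Ddit3 and Syvn1; 15.2% of all tested genes). The first count is close to that share of 36 genes and the second below it. In GRCm38 coordinates of the deposited table, Spcs2 lies at chr7:99837569-99863462, Sec61b at chr4:47474658-47483242, Sar1b at chr11:51763687-51791925, Atf4 at chr15:80255184-80257540, Ddit3 at chr10:127290774-127296288 and Syvn1 at chr19:6046576-6053712.

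**Figure D2:**
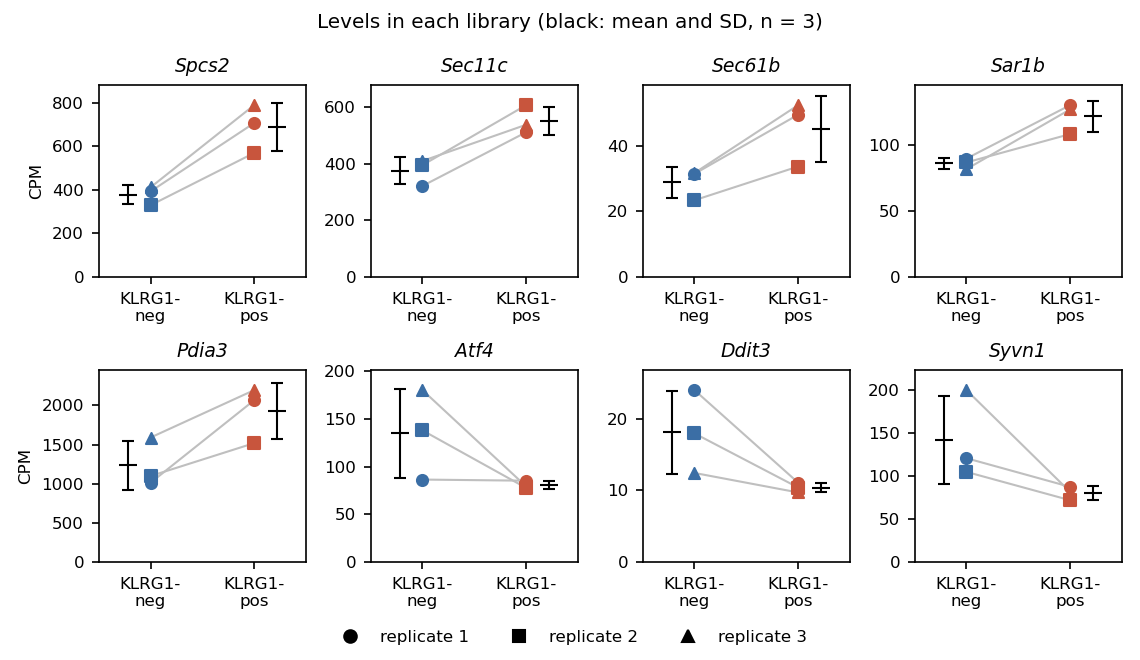
CPM in each library (y axis, from 0) of 8 genes in KLRG1-negative (blue) and KLRG1-positive (red) cells; marker shapes and grey lines join libraries of the same replicate number, and black bars show the mean and SD of 3 libraries. Spcs2, Sec11c, Sec61b and Sar1b are higher in every KLRG1-positive library, and Atf4, Ddit3 and Syvn1 lower, while Pdia3 overlaps.

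Signal peptide removal held the gene with the smallest p of the set. Spcs2, a subunit of the signal peptidase complex, was at 393, 329 and 411 CPM in negative against 707, 569 and 789 CPM in positive libraries. Each KLRG1-positive library was well above the highest KLRG1-negative one, a 1.82-fold difference of means (log2 fold change 0.87 ± 0.19 SE, adjusted p = 0.086 by edgeR's quasi-likelihood test and 0.00432 by DESeq2). Its fold change stayed between 0.86 and 1.00 when libraries were left out, with adjusted p between 0.144 and 0.393. Spcs2 has an annotated pseudogene, Spcs2-ps, and reads that map to both were left out of its count. Sec11c, a catalytic subunit of the same complex, was at 322, 396 and 410.2 against 512, 608 and 538 CPM (0.56 ± 0.17, adjusted p = 0.182), again with no overlap.

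The remaining subunits of the signal peptidase complex were on the list of other pathway genes, and Sec11a and Spcs1 were singled out after their values were seen. Spcs3 was at 373, 238 and 418 CPM in negative against 815, 548 and 792 CPM in positive libraries (1.07 ± 0.28, adjusted p = 0.126; 0.0232 by DESeq2, which called it higher). Sec11a was at 191, 167 and 201 against 271, 218 and 275 CPM (0.45 ± 0.18, adjusted p = 0.284). Spcs1 differed less, at 111, 85.3 and 108 against 117, 103 and 133 CPM (0.22 ± 0.20, adjusted p = 0.707), and its groups overlapped. None of the 5 subunits passed edgeR's quasi-likelihood test over all genes.

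Translocon genes showed smaller or less even differences. Sec61b, the small beta subunit of the channel, was at 31.4, 23.4 and 31.7 against 49.4, 33.7 and 52.3 CPM (0.65 ± 0.28, adjusted p = 0.339), so that KLRG1-positive library 2 only just cleared the KLRG1-negative range. Sec61a1, the channel itself, averaged 379.7 ± 97.6 CPM in negative against 472 ± 50.1 CPM in positive cells (SD, n = 3; log2 fold change 0.31), with overlap. Of the translocon-associated TRAP subunits, Ssr1 averaged 164 ± 43.4 against 238 ± 45.6 CPM (0.54) and Ssr3 182 ± 62.1 against 171 ± 46.6 CPM (-0.08). The whole role, which includes the signal peptidase genes Spcs2 and Sec11c, summed to 1584, 1241 and 1699 CPM in negative libraries. In positive libraries it summed to 2235, 1937 and 2331 CPM, without overlap. Spcs2 and Sec11c did not overlap on their own either, whereas Sec61a1, Ssr1 and Ssr3 overlapped between the groups. The highest KLRG1-negative sum was in library 3, and the lowest KLRG1-positive sum in library 2.

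COPII coat genes, which package cargo for the Golgi, were led per length by Sar1b, the GTPase that starts coat assembly. Sar1b was at 89.7, 86.7 and 81.7 CPM in negative against 130.1, 108 and 127 CPM in positive libraries. The spread within each group was small and the groups did not overlap (0.50 ± 0.17, adjusted p = 0.219). Sec23b, an inner coat protein, was at 206, 128 and 167 against 236, 163 and 219.8 CPM, with overlap (0.31 ± 0.25, adjusted p = 0.657). Sec24d, a cargo-binding coat protein and the gene with the UPRE, averaged 79.0 ± 43.2 against 101 ± 15.3 CPM (SD, n = 3; log2 fold change 0.36), and KLRG1-negative library 2 was far below the other 5, at 31.8 CPM against 84.1 CPM or more.

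None of the 11 chaperones and co-chaperones passed edgeR's quasi-likelihood test (0.125% of all genes higher and 1.21% lower). At an unadjusted p under 0.05 there were 0 too (4.19% and 11.5% of all genes), and DESeq2 made 0 adjusted calls (1.91% and 8.79%). With the replicate block, Canx had an unadjusted p of 0.0189 by edgeR and 0.0276 by DESeq2 (adjusted p = 0.179 and 0.136). Dnajb9 had 0.0313 by DESeq2 without the block (adjusted p = 0.185). Per length, Hspa5 and Hsp90b1 were the most abundant of them (332 and 260 CPM per kilobase) and Hyou1 and Dnajb9 the least (7.63 and 9.11). Hspa5, the chaperone BiP, was at 1423, 869 and 1904 CPM in negative against 1284, 1147 and 1787 CPM in positive libraries. The means, 1398 and 1406 CPM, were nearly equal (log2 fold change 0.01 ± 0.33 SE, adjusted p = 0.996). Hsp90b1, the chaperone GRP94, was at 1332, 610.2 and 1432 against 1153, 626 and 1129 CPM (-0.21 ± 0.40, adjusted p = 0.88). In both genes the libraries numbered 2 were the lowest of their groups. Of Hsp90b1 exon bases 15.7% are shared with other gene models, where ambiguous reads were not counted, as are 9.25% of Manf, 8.16% of Sec61a1, 8.05% of Eif2ak3 and 4.73% of Ddit3.

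Among the other chaperones, Dnajb9 (ERdj4), a co-chaperone that restrains IRE1, had the most negative fold change of the set. It averaged 30.7 ± 13.9 CPM in negative against 15.7 ± 3.15 CPM in positive cells (SD, n = 3; -0.96 ± 0.40 SE, adjusted p = 0.325), and KLRG1-positive library 1, at 19.4 CPM, lay above KLRG1-negative library 1, at 18.7 CPM. Hyou1, a large chaperone of the HSP70 family, averaged 64.0 ± 12.1 against 46.3 ± 17.1 CPM (-0.47), and Creld2, a stress-induced ER protein, 182 ± 86.6 against 124 ± 74.2 CPM (-0.55). Canx, the membrane-bound lectin chaperone calnexin, leaned up, at 584 ± 186 against 801 ± 217 CPM (0.46, adjusted p = 0.607). Its soluble relative Calr averaged 501 ± 174 against 533 ± 141 CPM (0.09), though it too has an annotated pseudogene, Calr-ps, and shared reads were left out. The BiP co-chaperones Dnajb11 (0.15) and Dnajc3 (-0.09), Sdf2l1 (0.30) and the secreted stress protein Manf (0.24) had mean levels of 236 against 262, 283 against 266, 124 against 153 and 105 against 124 CPM.

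Disulfide isomerases form and rearrange the disulfide bonds of new proteins. Pdia3 (ERp57), which works with calnexin and calreticulin, was the most abundant gene of the set per length, at 504 CPM per kilobase. It was at 1012, 1098 and 1590 CPM in negative against 2067, 1519 and 2196 CPM in positive libraries. KLRG1-positive library 2 lay inside the range of the negative libraries, but each same-numbered pair had the KLRG1-positive library higher (0.64 ± 0.25, adjusted p = 0.282; 0.0488 by DESeq2 with the replicate block, which called it higher). P4hb, the prototype isomerase PDI, was at 580.2, 516 and 884 against 759, 590.3 and 841 CPM (0.15 ± 0.26, adjusted p = 0.878). Pdia4 (ERp72) leaned down, averaging 676 ± 268 against 479.8 ± 125 CPM (-0.49, adjusted p = 0.622), and Pdia6 averaged 504 ± 231 against 555 ± 202 CPM (0.14). Isomerases of one family thus had fold changes on both sides of 0.

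ER-associated degradation pulls misfolded proteins back to the cytosol for destruction. Syvn1, the HRD1 ubiquitin ligase at its core, was at 121, 105 and 199.9 CPM in negative against 87.4, 71.8 and 81.5 CPM in positive libraries. Its groups did not overlap, with KLRG1-negative library 3 the highest by far (-0.82 ± 0.28, adjusted p = 0.231). Sel1l, the partner that holds HRD1 in place, averaged 229.8 ± 129 against 185 ± 41.6 CPM (-0.32), and its sign turned without KLRG1-negative library 1 (0.23), the highest library at 374 CPM. Herpud1, a stress-induced scaffold of the same complex, overlapped between the groups, at 272, 147 and 223 against 253, 208 and 251 CPM (0.15 ± 0.26, adjusted p = 0.871). Edem1, a lectin that selects glycoproteins for degradation, ranged from 39.0 CPM in KLRG1-positive library 1 to 412 CPM in KLRG1-positive library 3. Its KLRG1-negative libraries were at 99.0, 241 and 158 CPM and KLRG1-positive library 2 at 231 CPM (0.45 ± 0.79, adjusted p = 0.875), and without KLRG1-positive library 3 its fold change was -0.19.

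Variation between libraries followed the replicate number for much of the set. Library 2 was the lowest of its group in both populations for 24 of the 36 genes (background 19.6% of tested genes). By role these were 9 of 11 chaperones, 3 of 4 isomerases, 3 of 4 degradation genes, 5 of 6 translocon genes, 2 of 3 COPII genes and 2 of 8 sensors and factors. The summed level of the 36 genes was 11430, 7776 and 13780 CPM in negative against 12440, 9797 and 14560 CPM in positive libraries. The chaperone sum alone was 5083, 2867 and 5950 against 4821, 3485 and 5795 CPM, a gap between libraries 2 and 3 larger than any between same-numbered libraries. Ern1, Sesn2 and Sec11c went against this order and were highest in KLRG1-positive library 2.

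**Figure D3:**
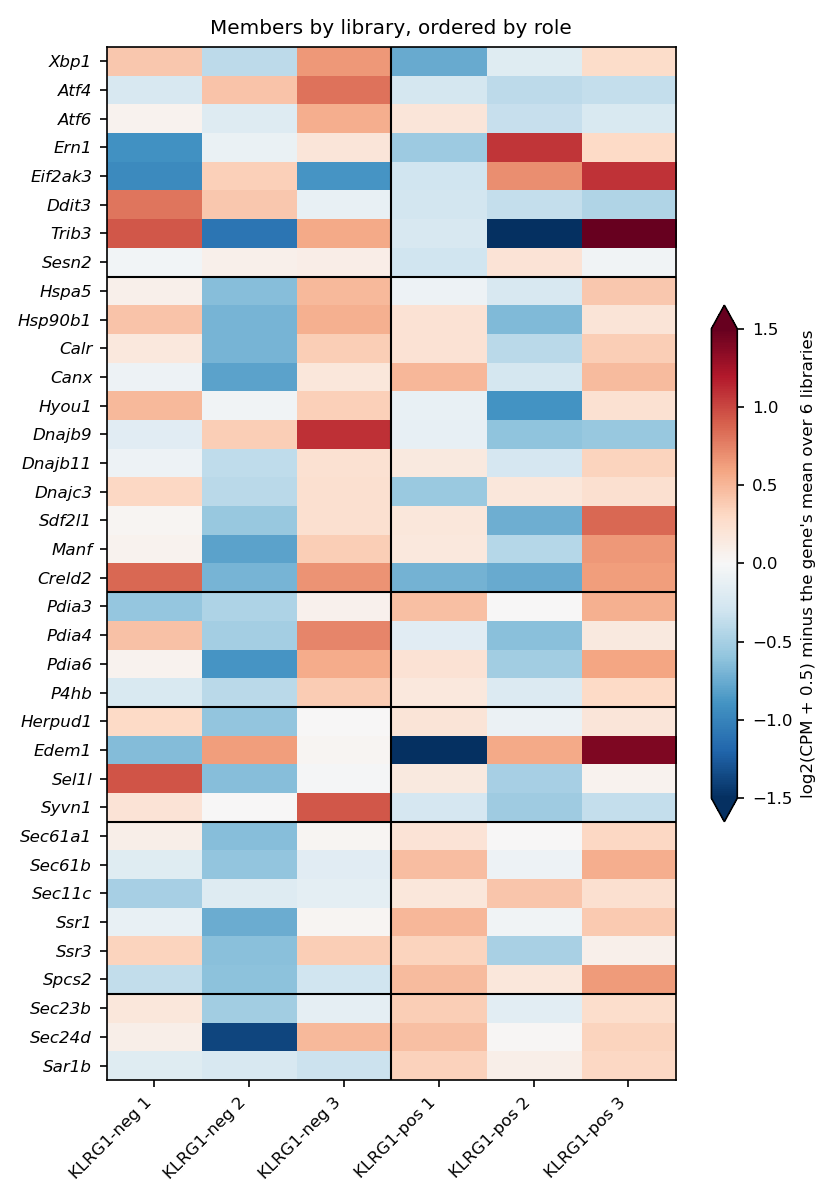
Log2(CPM + 0.5) of each gene (rows, grouped by role) in each of the 6 libraries (columns), minus the gene's mean over the libraries; red is above and blue below that mean, and colours end at 1.5. Most chaperone and isomerase rows are blue in both libraries numbered 2, while the rows of Spcs2, Sec11c and Sar1b turn from blue to red between the 2 populations.

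Other measures moved with the replicate number too. Plasma cell markers summed to 29640, 7518 and 26040 CPM in negative libraries 1, 2 and 3 and to 4499, 2674 and 8894 CPM in positive ones, so that library 2 was again the lowest of each group. The immunoglobulin gene Ighm, at 18320, 4701 and 17960 against 3171, 1955 and 6841 CPM, carried most of that sum. Of the 11 plasma cell markers, 10 were lowest in a library numbered 2, against 5455 of all 15197 tested genes. B cell markers summed to 680, 766 and 4763 against 140, 135 and 387 CPM. ILC2 markers summed highest in libraries 2 (4406 and 9961 CPM). Libraries 1 were the highest of each group for epithelial markers, at 603, 117 and 113 against 533, 15.86 and 15.85 CPM. The same held for endothelial (476 and 286 CPM in libraries 1) and myeloid sums (377 and 301 CPM). Alignments outside gene models made up 10.4% and 8.30% in the libraries numbered 2 and 4.76 to 7.89% in the others. The part of these measures in the low ER gene levels of libraries 2 was not tested. Plasma cell marker sums averaged 21070 CPM in negative and 5355 CPM in positive libraries, and ILC2 marker sums 3087 and 8884 CPM. Chaperone sums averaged 4633 and 4701 CPM. The part of either cell type in the chaperone sums was not tested.

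**Figure D4:**
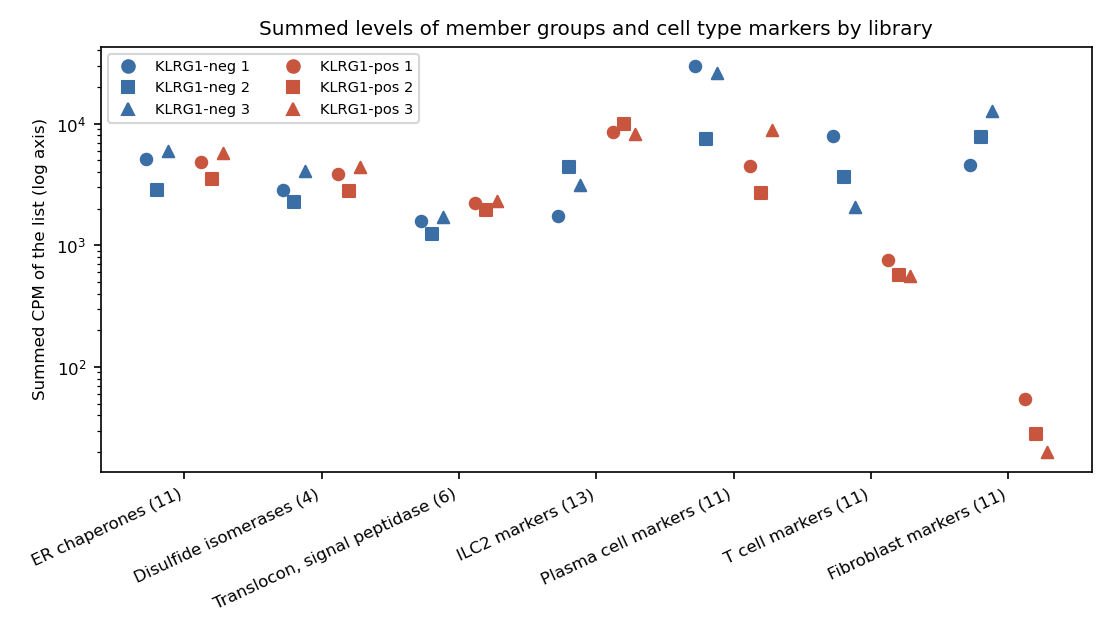
Summed CPM (y axis, log scale) of 3 groups of ER genes and of 4 marker lists in each library, with blue for KLRG1-negative, red for KLRG1-positive and marker shapes for replicate numbers; numbers in brackets count the genes of a list. The chaperone sums overlap between the populations (2867 to 5950 and 3485 to 5795 CPM), whereas fibroblast markers sum to 4605 CPM or more in KLRG1-negative and to 54.0 CPM or less in KLRG1-positive libraries.

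Within same-numbered pairs, 15 of the 36 genes were higher in the KLRG1-positive library of all 3 pairs, against 21.7% of all tested genes, and 6 were lower in all 3, against 25.1%. The 15 were Ern1, Eif2ak3, Calr, Canx, Dnajb11, Manf, Pdia3, Pdia6, Sec61a1, Sec61b, Sec11c, Ssr1, Spcs2, Sec23b and Sar1b. The 6 were Atf4, Ddit3, Hyou1, Creld2, Pdia4 and Syvn1. The first list holds 5 of the 6 translocon and signal peptidase genes, and the second both PERK-pathway factors. None of these genes passed in the fit with the replicate block (edgeR quasi-likelihood; smallest adjusted p = 0.0793, for Spcs2).

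The 8 genes with an ERSE did not share a direction. Their log2 fold changes ran from -0.82 (Syvn1) to 0.46 (Canx) with a median of -0.04, 4 above and 4 below 0, and those of the 23 genes with a window but no ERSE from -0.96 to 1.03 with a median of 0.21. In the library pattern, 7 of the 8, all but Dnajc3, were lowest of their group in library 2 in both populations. The same held for 24 of all 36 genes and 19.6% of all tested genes, so the pattern is not particular to genes with an ERSE.

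Beside the 36 genes, a list of 89 other genes of the pathway was measured. Only Kdelr3 passed over all genes by edgeR's quasi-likelihood test, and it was lower in positive cells, while 0 were higher (0.125% of all genes higher and 1.21% lower). At an unadjusted p under 0.05, 8 were higher and 4 lower (4.19% and 11.5% of all genes), and with the replicate block 18 and 10 (6.74% and 12.3%). Kdelr3, a receptor that returns ER proteins from the Golgi, was at 20.7, 23.7 and 39.3 CPM in negative against 2.25, 2.08 and 3.91 CPM in positive libraries, a 10.2-fold difference of means (-3.34 ± 0.47 SE, adjusted p = 0.041). With the replicate block its adjusted p was 0.0549, and without any single library it lay between 0.0643 and 0.16. The call was lost in each of those fits, while the log2 fold change of Kdelr3 stayed between -3.00 and -3.55. Without KLRG1-negative library 3 or KLRG1-positive library 2, 0 of all genes passed. DESeq2 gave Kdelr3 an adjusted p of 2.29e-11, and 4.4e-15 with the replicate block. Fibroblast markers differed in the same direction (4605 to 12620 against 19.8 to 54.0 CPM), and their part in this difference was not tested. Its relatives Kdelr1 and Kdelr2 averaged 39.2 against 36.7 CPM and 46.3 against 50.8 CPM.

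By role, 16 of 19 other translocation and glycosylation genes had positive fold changes (median 0.33) and 11 of 14 other degradation genes (median 0.24), against 10 of 19 traffic genes (0.06), 8 of 19 folding enzymes (-0.03) and 6 of 18 stress regulators (-0.14). Surf4, a cargo receptor, was at 425, 387 and 456 CPM in negative against 651, 586 and 704 CPM in positive libraries (0.61 ± 0.16, adjusted p = 0.122). The oxidase genes Ero1l and Ero1lb, which recharge disulfide isomerases, leaned in opposite directions. Ero1l was at 143, 211 and 275 against 269.6, 434 and 683 CPM (1.14 ± 0.40, adjusted p = 0.239), and Ero1lb at 57.6, 29.4 and 72.3 against 17.0, 15.1 and 22.5 CPM (-1.54 ± 0.39, adjusted p = 0.118). DESeq2 called 2 of these 89 genes higher, Surf4 and Spcs3, and 4 lower, Kdelr3, Ero1lb, Uggt2 and Mcfd2, where it called 1.91% and 8.79% of all genes. Surf4, like Spcs3, is named as one of the 2 genes with the smallest p among those higher, and Ero1l, Ero1lb, Kdelr1 and Kdelr2 were named after their values were seen.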

How the data were processed

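RNA from 6 libraries was made into cDNA with a SMARTer low-input kit and built with Nextera XT, which does not mark strand, per the labels' protocols. The deposited values are raw counts of reads per gene that the authors made with featureCounts 1.5.2 on Ensembl release 90 gene models of GRCm38, with the strand option off and with multi-mapping and ambiguous reads not counted, per the file headers. Multi-mapping alignments made up 26.3 to 32.3% of a library. The deposited gene length, another column, served only for levels per kilobase. STAR 2.4.1d is named in the submitters' processing notes. Symbols came from GENCODE M21.

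Differences were tested here with edgeR 4.0.16 (R 4.3.3): quasi-likelihood F test, TMM factors, filterByExpr (15197 genes kept), two-sided p-values adjusted by Benjamini-Hochberg over all genes, threshold 0.05. An adjusted p without another name comes from this test. SE is that of the log2 fold change, from the F statistic. DESeq2 1.42.0, other scalings, no filter, a replicate block and left-out libraries were alternatives. The test script was checked on simulated data with less spread between libraries than these data and larger changes than the 36 genes had. That check does not show whether changes of their size could be found. The 36 genes, the other lists and the tests were chosen with earlier results of these data known. Values in every library are printed for the sensors and factors, for the 2 genes of each other role most abundant per length, and for genes with an unadjusted p under 0.05 or no overlap; others named in that detail were chosen after their values were seen. Whether the replicate numbers pair the samples was checked by correlating, across genes, how far libraries lay from their group means. For libraries with the same number, r was 0.38, 0.34 and 0.19 for numbers 1, 2 and 3, against -0.32 to 0.06 for unlike numbers. The main test and its SE leave this pairing out, while the fits with the replicate block and the counts by same-numbered pair use it. That pairing comes from the data and not from the labels, and genes are not independent replicates.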

Additional observations from a re-analysis of the deposited data

How the results depend on the processing

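By edgeR, 0 of the 36 genes passed in either direction under another scaling, without the filter on low counts or with the replicate block. The block fit called 0 of all genes upward and 53 downward. Leaving out any library or same-numbered pair also gave 0 of the 36, where 0 to 5 of all genes passed upward and 0 to 168 downward. Dropping the pair numbered 2 or 3, or just negative library 3 or positive library 2, left no gene at all with a call. A 0 for the 36 genes is uninformative in those fits. DESeq2 called 1 of the 36 higher, and 2 with the replicate block. Of the 89 other genes DESeq2 called 2 higher and 4 lower (1.91% and 8.79% of all genes), and 4 higher and 8 lower with the replicate block (3.61% and 11.2% of all genes). edgeR with the replicate block called 0 lower (0.349% of all genes), as did each fit without a library or pair (0 to 0), where fewer samples entered. In the leave-out fits an unadjusted p under 0.05 (edgeR quasi-likelihood) was reached by 1 to 7 of the 36 genes upward and by 0 to 3 downward. The 7 came without the pair numbered 2 (866 of all 15456 genes upward). The 1 came without the pair numbered 1 (603 of 15564), and the 3 downward without KLRG1-negative library 1 (1687 of 16051). Over these fits 406 to 1048 of all genes passed upward and 1159 to 1779 downward. The median fold change of the 36 genes, with that of all genes in brackets, was 0.323 (-0.05) without KLRG1-negative library 3. It was 0.298 (-0.105) without KLRG1-positive library 2 and 0.254 (0.012) without the filter. Without KLRG1-negative library 2 it was 0.037 (0.057), and without KLRG1-positive library 3 0.027 (0.025), so there the set was below or level with all genes.

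Of 540 single-gene fold changes under alternatives, 500 kept their direction and side of the threshold, 37 (12 genes) changed direction and 3 passed only there (Spcs2 by DESeq2 without and with the block, Pdia3 by DESeq2 with it). The log2 fold change of Trib3 was -0.382 with the replicate block by edgeR and -0.382 by DESeq2, and that of Edem1 -0.01 and -0.012. Without the filter on low counts Sesn2 was at 0.012, Dnajc3 at 0.01 and Ssr3 at 0.025, and with library size alone Hspa5 was at -0.006. With libraries or pairs left out, the range was -0.496 to 0.095 for Atf6, -1.207 to 0.929 for Trib3, -0.21 to 0.044 for Sesn2, -0.134 to 0.307 for Hspa5, -0.405 to 0.036 for Hsp90b1 and -0.06 to 0.318 for Calr. It was -0.289 to 0.267 for Dnajc3, -0.021 to 0.632 for Sdf2l1, -0.052 to 0.519 for Pdia6, -0.257 to 0.966 for Edem1, -0.53 to 0.232 for Sel1l and -0.258 to 0.128 for Ssr3. The cause was not tested. Without KLRG1-negative library 2 the fold change of Eif2ak3 was 1.754 against 1.027. The smallest count of any of the 36 genes in a library was 20 (Trib3).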
